A study of Mus musculus with 6 samples.

Results

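The circadian clock genes Arntl, Clock, Per1, Per2, Per3, Cry1, Cry2, Nr1d1, Nr1d2 and Dbp were followed in Pax5-deficient pro-B cells of the mouse after transfer of EBF, a transcription factor of early B cell development. These 10 genes are read by 23 of the 45037 probe sets tested, which were taken by exact gene symbol and kept separate. The family was selected on the EBF and control intensities of these same arrays, which were in view when it was proposed. Its EBF minus control differences are therefore given as a description, with no p-value for any member, and counts of members past a threshold stand beside those of all probe sets and support nothing.

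All cells were Pax5-/- pro-B cells grown on the bone marrow stromal line ST2 with IL-7 at 5 ng/ml. The EBF group received the Mig-EBF retrovirus and the control group the MigR1 retrovirus. Transduced cells were sorted for GFP 2 days after infection, and 6 microg of total RNA per sample went into the labelling for Affymetrix arrays. Each group has 3 arrays, named here by group and labelled replicate number. The labels give neither the age or strain of the mice nor the hour at which cells were collected, and they do not say whether the arrays stem from separate cultures, so the spread between arrays may be technical. A rat array is named in the design, whereas the organism label and the probe annotation are those of the mouse.

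The clock is a feedback loop of transcription and translation. BMAL1, the product of Arntl, pairs with CLOCK on E-box sequences and switches on the Per and Cry genes, whose proteins return to inhibit that pair. In a second loop the same pair drives Nr1d1 and Nr1d2, which encode the nuclear receptors REV-ERB alpha and REV-ERB beta. These repress Arntl through ROR elements, where ROR receptors activate it. Dbp encodes a factor that binds D-box sequences and carries the rhythm to output genes. Arntl transcripts usually peak when those of Nr1d1 and Dbp are low, and in mice Bmal1 has been linked to B cell development.

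The letters of these elements were searched for in the promoter windows of RefSeq (build GRCm38.p6), which run from 250 bases before to 50 bases after each annotated start. Of the 10 genes, 9 have a window, 13 windows in all, and Per2 has none in that table. Both strands were searched for 6 motifs, and 0 matches of different motifs overlapped. The matches below are shown because Arntl, the gene with the largest difference, holds ROR element letters, whereas Per1, Cry1 and Per3 hold E-box or D-box letters. A match describes the sequence and is not a measured binding site. Capitals mark the match.
Arntl, TAGGTNA, first match, chr7:113207496-113207520, plus strand: gtcggaaagTAGGTTAgtggtgcga
Arntl, TAGGTNA, second match, chr7:113207532-113207556, plus strand: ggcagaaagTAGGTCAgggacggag
Per1, E-box CACGTG, chr11:69098774-69098797, plus strand: acccaagtcCACGTGcagggatgt
Cry1, E-box CACGTG, chr10:85185100-85185123, minus strand: gccggtggtCACGTGgggtgcatg
Per3, D-box TTATGTAA, first match, chr4:151044854-151044879, minus strand: acccgcgcgTTATGTAAggtactcgg
Per3, D-box TTATGTAA, second match, chr4:151044807-151044832, minus strand: cgcccgcggTTATGTAAcccccgccg

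TAGGTNA, a shortened form of the ROR element, occurred in 8.29% of all 32851 windows, and 0.557% held at least 2 matches, as Arntl did. Among the clock genes Arntl was the 1 gene with a match to it. The E-box letters were in 7.15% of windows and the D-box letters in 0.938%. TGACGTCA, the cyclic AMP response element, was in 1.79% of windows and in 0 of the clock windows. CCCNNGGG, the inner letters of the EBF motif, was in 13.7% of windows, among them those of Per3 and Dbp. The Arntl windows had 0 matches to it, which says only that these letters are not in them.

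The 250 bases before the first annotated Arntl start are printed because this gene had the largest difference of the family. Capitals mark CCAAT boxes, here all on the other strand (ATTGG), a motif searched after the sequence had been seen.
Arntl, chr7:113207215-113207464, plus strand: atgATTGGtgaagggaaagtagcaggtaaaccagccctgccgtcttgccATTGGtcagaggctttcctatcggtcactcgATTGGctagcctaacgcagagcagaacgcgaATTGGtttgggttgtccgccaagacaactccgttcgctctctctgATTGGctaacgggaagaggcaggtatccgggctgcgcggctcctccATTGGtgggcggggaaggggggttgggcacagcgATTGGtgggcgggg
This stretch holds 7 matches, and the whole window holds 8. CCAAT was in 37.4% of all windows, and 1 window of 32851, that of Arntl, had at least 8 matches.

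Intensities are the authors' values on a linear scale. Array medians lay between 424 and 451, and the highest reading among 27 probe sets that serve as Bacillus controls was 410.4. The means of 11 clock probe sets lay at or below that highest control value. The 10 measured genes listed as marks of pro-B cells had means from 956 to 19052. The lowest, 956, was that of Pax5, although all cells were Pax5-/-, and what this reading stands for was not tested. Summed over the 10 genes, intensities were 66858 to 68039 in the EBF arrays and 58040 to 59558 in the controls, without overlap. By limma 0 of the 10 passed the threshold. With the replicate block (a term for the replicate number) 3 were higher, against 7.34% of all genes called in either direction. These were Cd79b, Igll1 and Il7r, by 0.40, 0.57 and 0.42 on the log2 scale. Igll1 alone averaged 13668 in the EBF arrays and 9243 in the controls. Cd79a (-0.27), Ptprc (-0.24) and Pax5 (-0.07) were lower and passed in neither fit. Summed markers of T and NK cells, 8 of 10 measured, ranged from 4479 to 5063 in the EBF arrays and from 5567 to 6580 in the controls. Nkg7 alone averaged 577.9 and 1959, and passed in both fits. It was the 1 measured gene of this list that passed in either fit, and the 1 gene whose groups did not overlap. Cd3g was lower by 0.23 and Cd4 higher by 0.25 on the log2 scale, and the others lay between -0.07 and 0.04. The difference in the sums is therefore not shared by the list. Sums for myeloid cells (10 genes) were 5299 to 5638 in the EBF arrays and 5447 to 5959 in the controls. Lyz2 (569 and 808) was lower in both fits and was the 1 gene of this list that passed in either. The others lay between -0.32 (Cd68) and 0.22 (S100a9) on the log2 scale, and the median of the list was 0.01. Sums for ST2 stroma (10 genes) were 18751 to 25555 in the EBF arrays and 19671 to 31086 in the controls. The lowest mean was 132 among the myeloid markers, 185 among those of T and NK cells and 244 among those of stroma. These lowest means lie under the highest Bacillus control value, so a reading above 0 does not show that a cell type was present. The highest means, 1352 for myeloid cells, 1368 for T and NK cells and 4875 for stroma, lay above it. Which cells these brighter readings came from was not tested. The part of these markers in the results on clock genes was not tested.

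Across the family, Arntl was the 1 gene with a large difference, and most other probe sets read nearly alike in both groups. With limma on log2(intensity + 32), 0 of the 23 probe sets passed an adjusted p of 0.05, against 0.875% of all probe sets, and 4 had an unadjusted p below 0.05, against 18.9% of all. With the replicate block 1 passed, the bright Arntl probe set, against 7.28% of all. The arrays of the groups did not overlap for 5 of 23 (21.7%), against 23.2% of all, and in these 5 every EBF array was above every control array, as in 15.5% of all. The median log2 difference of the 23 was 0.03, and that of all probe sets was 0.02. These shares are near those of all probe sets, and nothing is read from them about the family.

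**Figure D1:**
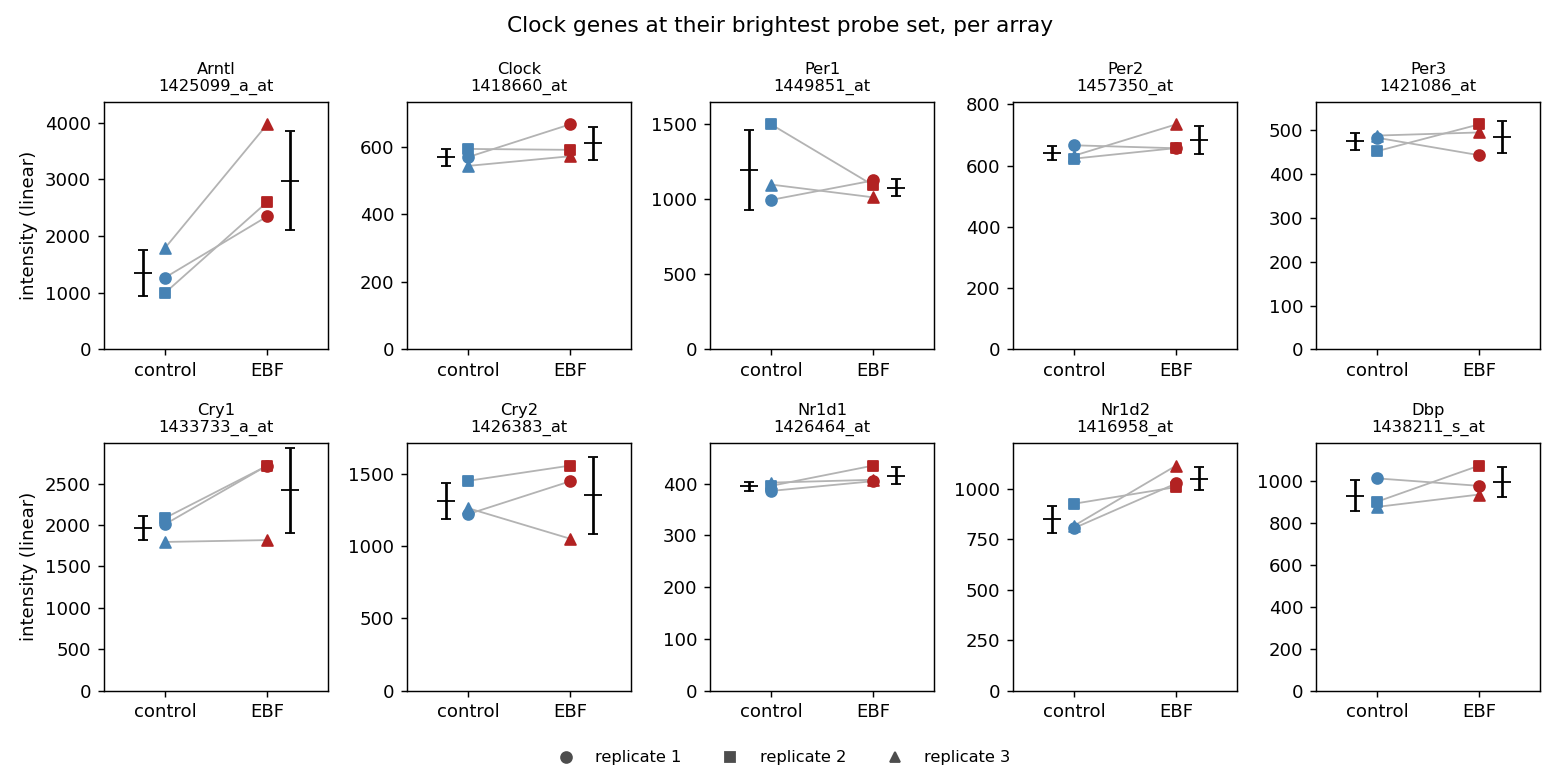
Intensity on a linear scale of each clock gene at its brightest probe set, in control (blue) and EBF (red) arrays. Marker shapes give the replicate number, grey lines join arrays of the same number, and black bars show mean ± SD (n = 3). Arntl stands at 998 to 1789 in the controls and 2347 to 3972 in the EBF arrays, while the ranges of most other genes overlap.

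Arntl, which encodes the activator BMAL1, read 2347, 2602 and 3972 at probe set 1425099_a_at in EBF 1 to 3. In control 1 to 3 it read 1267, 998 and 1789. Every EBF array was above every control array, and the array numbered 3 was the highest of its group in both. The means were 2974 ± 874 and 1352 ± 402.5 (SD, n = 3 each). The EBF level was 2.18-fold the control level, a log2 difference of 1.12 with a standard error of 0.24 and a 95% interval of 0.58 to 1.66. In bulk RNA, a change in each cell and a change in the share of cells that express the gene cannot be told apart. Of all 45037 probe sets, 49 had a log2 difference at least this large in size, and 26 had one at least this large upward.

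The Arntl difference was upward for each replicate number, but its size varied. On the log2 scale EBF exceeded control by 0.87 for number 1, 1.35 for number 2 and 1.14 for number 3. With the replicate block the standard error was 0.10 in place of 0.24. Without EBF 3 the difference was 0.90. Leaving out both EBF 3 and control 2, which had been set apart in earlier work on these data, gave a difference of 0.70.

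The second Arntl probe set, 1457740_at, showed no such gap. It read 576, 514 and 682 in EBF 1 to 3 and 577, 657 and 613 in control 1 to 3, so that the groups overlapped. Its log2 difference was -0.06 with a standard error of 0.11 and a 95% interval of -0.31 to 0.18, which lies wholly below that of the first probe set. Which Arntl transcripts each probe set reads is not given in the sources used here.

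Clock, the partner of BMAL1, differed little at any of its 4 probe sets. The brightest, 1418660_at, read 667, 591 and 572 in EBF 1 to 3 and 570, 594 and 544 in control 1 to 3, and the ranges overlapped. Its log2 difference was 0.09 ± 0.08 (SE). At 1418659_at the difference was -0.15 ± 0.09, the lowest value of the family, with the highest reading, 418, in control 2. The other Clock probe sets had means of 183 and 163 and differences of -0.06 and -0.02.

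**Figure D2:**
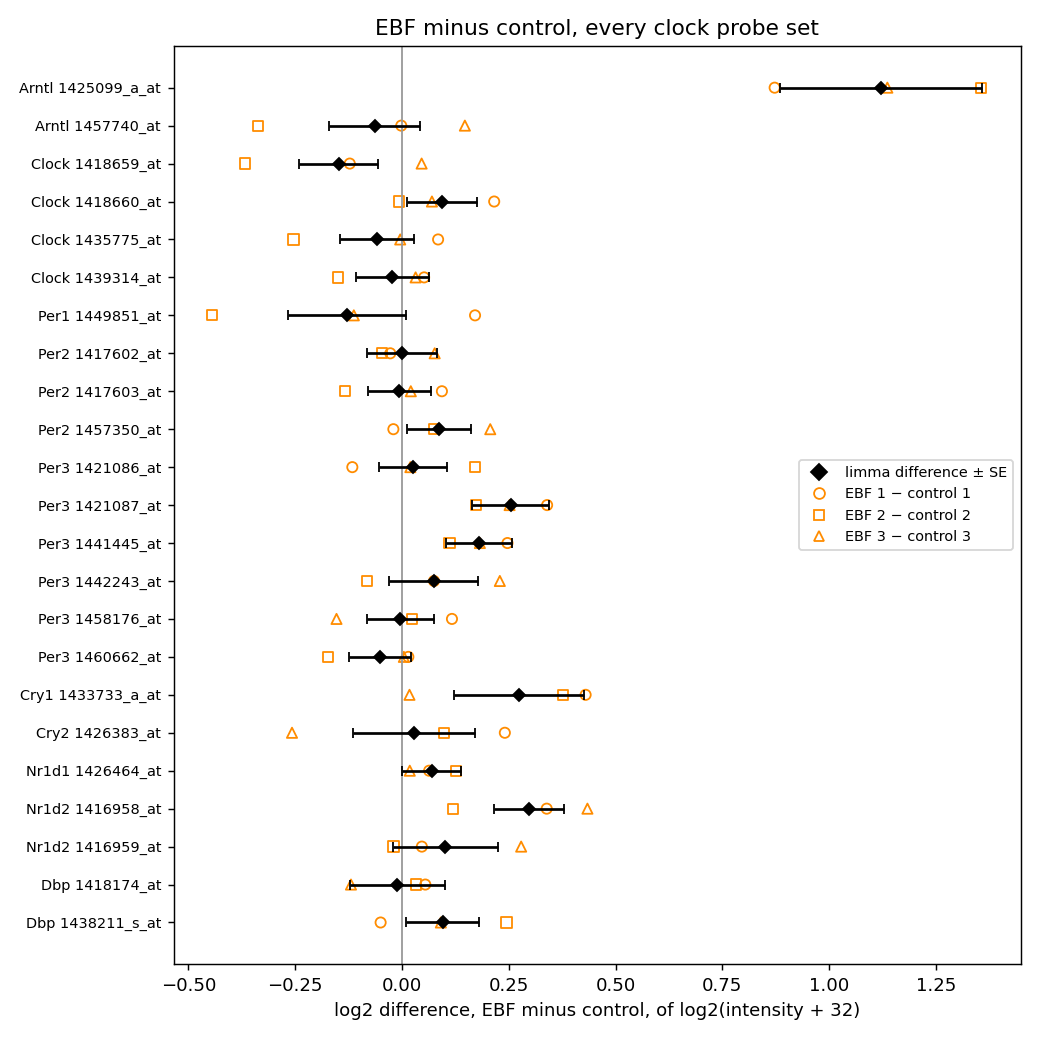
Log2 difference, EBF minus control, of log2(intensity + 32) for the 23 clock probe sets. Black diamonds are limma estimates with their standard errors, and open markers are the differences between arrays of the same replicate number. Arntl 1425099_a_at lies at 1.12 and the other 22 between -0.15 and 0.30.

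Among the inhibitors of the loop, Per1 stood out by a single control array. Its probe set 1449851_at read 1125, 1093 and 1013 in EBF 1 to 3 and 996, 1499 and 1098 in control 1 to 3. Apart from control 2, all arrays lay between 996 and 1125. The log2 difference was -0.13 ± 0.14 (SE), and it was 0.17 for number 1 and -0.44 for number 2. Without control 2 it changed sign, to 0.04.

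Per2 and Per3, its paralogues, gave small differences whose size depended on the probe set. Of the 3 Per2 probe sets, 1457350_at was the brightest and read 657, 657 and 735 in EBF 1 to 3 and 667, 623 and 633 in control 1 to 3 (log2 0.09 ± 0.08, SE). The other Per2 probe sets were dim, with means of 145 and 233, and their differences were 0.00 and -0.01. For Per3, 6 probe sets were present, and the groups were separate at 2 of them. At 1421087_at it read 524, 439 and 439 in EBF 1 to 3 against 408, 386 and 363 in control 1 to 3 (log2 0.25 ± 0.09, SE). At 1441445_at the EBF arrays read 392 to 424 and the control arrays 342 to 390, a log2 difference of 0.18 ± 0.08 (SE). The brightest, 1421086_at, had 0.02 ± 0.08, and the rest had 0.07, -0.00 and -0.05, with overlapping groups. The 6 probe sets of Per3 thus did not give 1 common picture, and 4 of them had means under the highest Bacillus control value.

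Cry1, which encodes a strong repressor of the BMAL1 and CLOCK pair, was high in EBF 1 and EBF 2 alone. Its probe set read 2717, 2715 and 1817 in EBF 1 to 3 and 2008, 2084 and 1795 in control 1 to 3. EBF 3 lay within the control range, and number 3 was the lowest array in both groups. The log2 difference was 0.27 ± 0.15 (SE), made up of 0.43, 0.38 and 0.02 for numbers 1 to 3. Without EBF 3, the low array of its group, it was 0.47, and without EBF 3 and control 2 it was 0.51. Without EBF 1 or EBF 2 it was 0.18.

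Cry2, its paralogue, read 1449, 1558 and 1052 in EBF 1 to 3 and 1222, 1453 and 1264 in control 1 to 3. EBF 3 was again low, here below all controls. The log2 difference was 0.03 ± 0.14 (SE), and it was 0.27 without EBF 3 and control 2.

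Of the REV-ERB genes, Nr1d2 was the higher one in the EBF arrays. At 1416958_at it read 1026, 1008 and 1114 in EBF 1 to 3 and 805, 926 and 816 in control 1 to 3, with no overlap. The log2 difference was 0.30 ± 0.08 (SE), a fold of 1.23, and it stayed between 0.25 and 0.36 under every alternative. The dimmer Nr1d2 probe set, 1416959_at, had a mean of 179 and a difference of 0.10 ± 0.12 (SE), with overlapping groups.

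Nr1d1 read 405, 435 and 408 in EBF 1 to 3 and 386, 396 and 402 in control 1 to 3. The groups were separate, but the gap between the lowest EBF array and the highest control array was small. The log2 difference was 0.07 ± 0.07 (SE), with a 95% interval of -0.09 to 0.23, and the mean over all arrays, 405, lay under the highest Bacillus control value.

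Dbp, the output gene, did not separate the groups at either probe set. At 1438211_s_at it read 977, 1073 and 935 in EBF 1 to 3 and 1012, 901 and 876 in control 1 to 3 (log2 0.10 ± 0.09, SE). At 1418174_at it read 926, 865 and 701 in EBF 1 to 3 and 891, 845 and 764 in control 1 to 3 (log2 -0.01 ± 0.11, SE). Over all 22 probe sets other than the bright Arntl one, the differences ran from -0.15 to 0.30 and the 95% intervals lay between -0.45 and 0.62. The Arntl estimate at 1425099_a_at, 1.12, was above these intervals, but its own interval, 0.58 to 1.66, overlapped that of Cry1, which reached 0.62. Arntl was the largest of a family chosen on these values, so this is a description only.

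Same-numbered arrays were compared because arrays of 1 number deviated together over the 22519 brighter probe sets, those with a mean at or above the median. For Arntl the array numbered 3 lay above its group mean by 0.45 in the EBF group and 0.44 in the control group on the log2 scale. For Cry1 the same arrays lay at -0.38 and -0.12, and for Dbp 1418174_at at -0.23 and -0.12. Within each group, Arntl at 1425099_a_at was thus highest in the array where Cry1 and Dbp were lowest. Nr1d1 did not share this, with number 3 at -0.03 in the EBF group and 0.03 in the control group. Number 3 was the lowest in both groups for 6 of 23 clock probe sets, 2 of them Dbp, against 21.4% of all probe sets. It was the highest in both for 1, Arntl 1425099_a_at, against 11.8% of all. This pattern was picked after the values had been seen. The share with number 3 lowest is near that of all probe sets and the share with number 3 highest is below it, and nothing is read from either. EBF was above control for every replicate number at 6 of 23, against 29.5% of all.

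**Figure D3:**
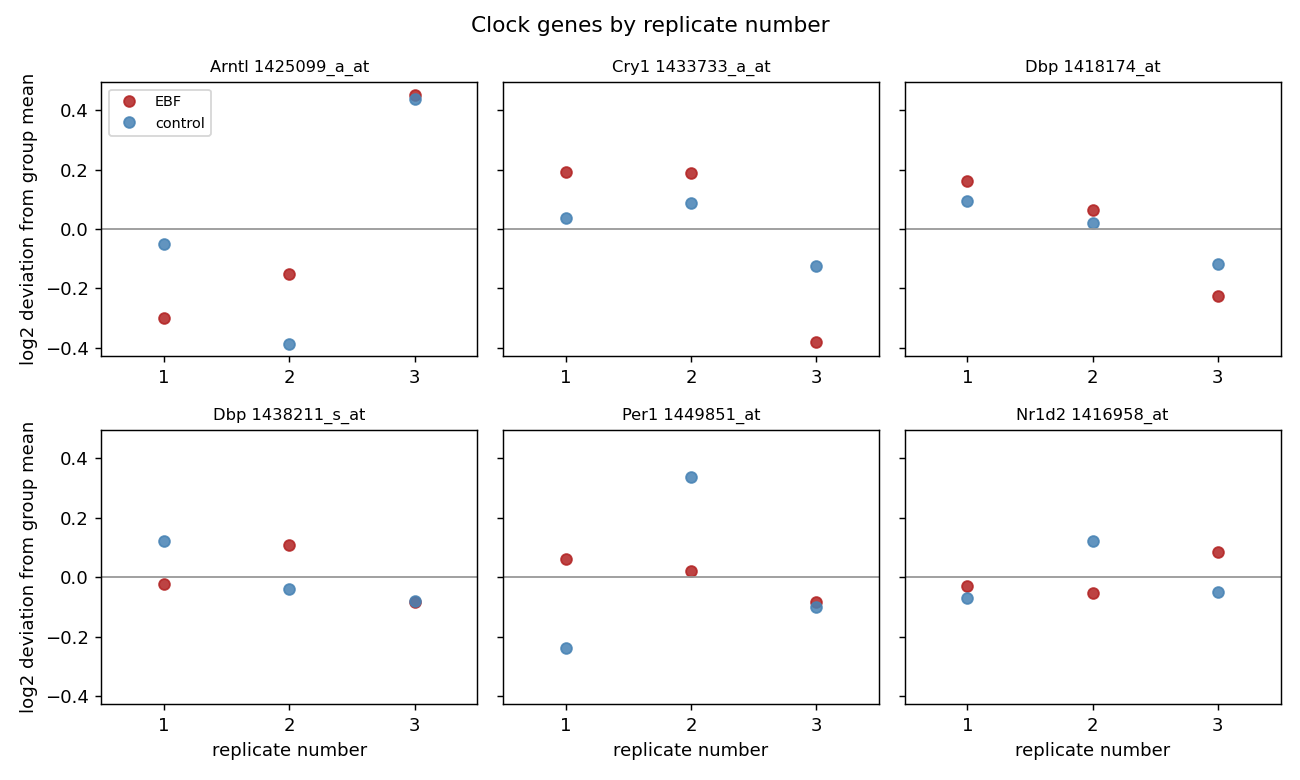
Deviation of each array from the mean of its own group, in log2 units of log2(intensity + 32), by replicate number, for 6 clock probe sets in the EBF (red) and control (blue) groups. In both groups number 3 is above the mean for Arntl (0.45 and 0.44) and below it for Cry1 and both Dbp probe sets.

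Over the 6 arrays, and with r given as a description, the Arntl pattern at 1425099_a_at was compared with 15377 other genes of mean intensity at least 200. The most alike were Psph (r = 0.996), a phosphatase of serine synthesis, Ccnh (0.996), a cyclin of the kinase that activates other cyclin-dependent kinases, 4933404O12Rik (0.995) and Pde5a (0.994), a cyclic GMP phosphodiesterase. Pde5a read 756, 889 and 1108 in EBF 1 to 3 and 549, 449 and 657 in control 1 to 3, the same order of arrays as Arntl. The most opposed were Ier3, an early response gene (r = -0.993), Cmtm7 (-0.993), Ap3m1 (-0.990) and P4hb (-0.990). An r does not measure size, and the log2 differences were unequal. They were 0.35 for Psph, 0.13 for Ccnh, 0.37 for 4933404O12Rik and 0.70 for Pde5a. For Ier3 the difference was -1.10, but for Cmtm7, Ap3m1 and P4hb it was -0.08, -0.10 and -0.10. Ier3 read 711, 574 and 404 in EBF 1 to 3 and 1326, 1454 and 916 in control 1 to 3. The arrays share the group difference and the replicate numbers, so such values arise for any gene that follows both. Among the clock probe sets the highest r with Arntl was 0.77, for Per2 1457350_at, followed by 0.75 for Nr1d2 1416958_at.

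The other genes of the clock, 28 from textbook knowledge of which 26 were measured, were read at their brightest probe sets. By limma 0 passed the threshold, against 1.09% of all 18193 genes, and 5 had an unadjusted p below 0.05, against 19.7% of all. With the replicate block 1 was higher and 1 lower, against 7.34% of all genes. Their median log2 difference was 0.02, and that of all genes was 0.03.

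Nfil3, which encodes a repressor that competes with DBP for D-box sites, was the lower one with the block. It read 1036, 1215 and 934 in EBF 1 to 3 and 1409, 2064 and 1302 in control 1 to 3, with no overlap (log2 -0.55 ± 0.17, SE; limma adjusted p = 0.164, and 0.00854 with the block). Without control 2 the difference was -0.35, and -0.26 without EBF 3 as well. Tipin, which encodes the partner of TIMELESS at replication forks, was the higher one. It read 6273, 6487 and 6347 in EBF 1 to 3 and 5238, 4845 and 5114 in control 1 to 3 (log2 0.33 ± 0.07, SE; limma adjusted p = 0.0788, and 0.0349 with the block). Tipin passed in 4 of 15 settings, which also include the higher pseudocount, the trended variance and the fit without EBF 3. It did not pass with median scaling, quantile normalization, the lower pseudocount or any other single array left out (limma adjusted p up to 0.284). The receptors that act on the ROR element of Arntl differed little, with 0.02 ± 0.10 for Rora and 0.04 ± 0.08 for Rorb. Arntl2, the paralogue of Arntl, had -0.33 ± 0.14 (SE; limma adjusted p = 0.256), which is opposite in sign to Arntl and did not pass in either fit.

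**Figure D4:**
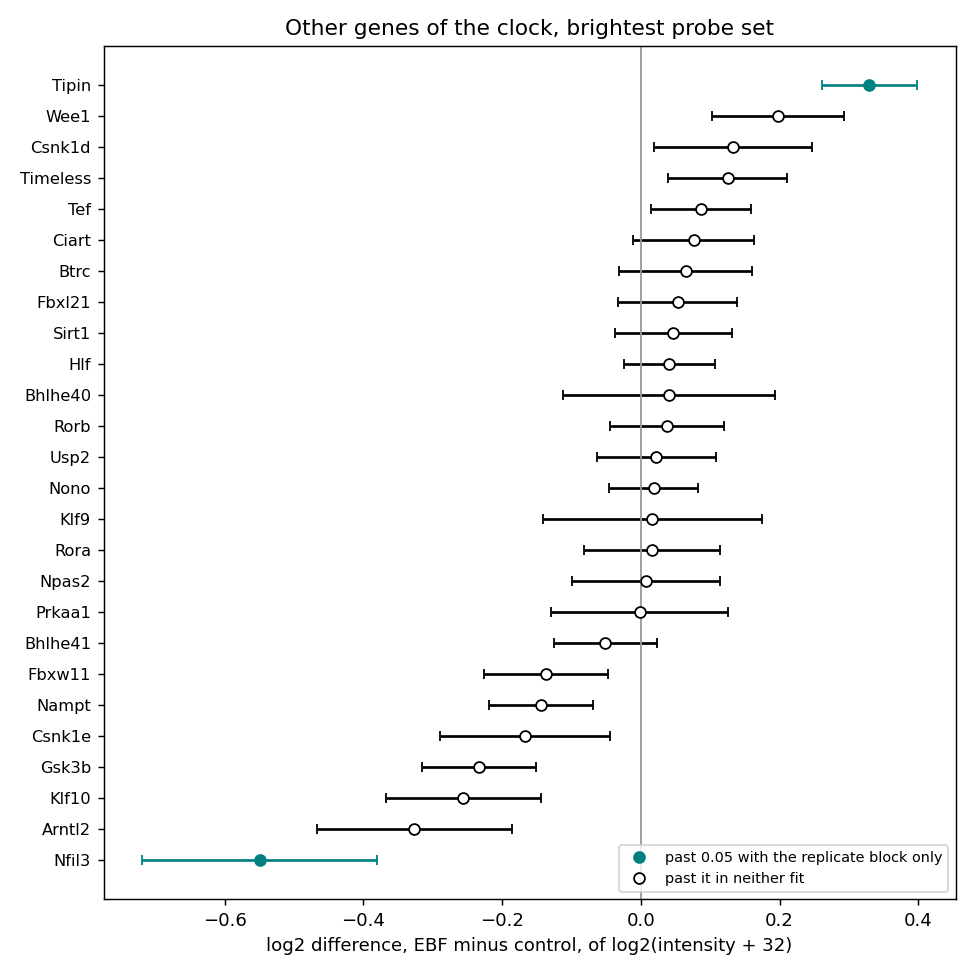
Log2 difference, EBF minus control, with limma's standard error, for 26 other clock genes at their brightest probe sets. Filled green points passed an adjusted p of 0.05 with the replicate block and not in the main fit without it: Nfil3 at -0.55 and Tipin at 0.33.

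Genes that lie upstream of Per1 or answer the same signals, cyclic AMP, growth factors and glucocorticoids, were read from a list of 16, all measured. By limma 1 was lower and 0 higher, and with the block 2 were lower and 1 higher, against 1.09% and 7.34% of all genes in either direction. The median log2 difference of the list was -0.05, and that of all genes was 0.03. Crem, which encodes a cyclic AMP response modulator, fell from 1634 ± 55.8 to 948 ± 150.2 (SD, n = 3 each; log2 -0.78 ± 0.11, limma adjusted p = 0.0207). The call was lost without EBF 1, EBF 2 or any 1 control (highest adjusted p 0.116). Fos, an immediate early gene, fell with the block alone (log2 -0.97 ± 0.51, SE; adjusted p = 0.339, and 6.16e-04 with the block). It read 823, 1904 and 645 in EBF 1 to 3 and 1607, 4354 and 1132 in control 1 to 3. Number 2 was the highest array in both groups, and control 2 is also the array with the highest Per1. Without control 2 the Fos difference was -0.41, and without EBF 3 and control 2 it was -0.10. Nr3c1, the glucocorticoid receptor gene, rose with the block alone (log2 0.30 ± 0.10, SE; adjusted p = 0.178, and 0.0436 with the block), while Tsc22d3 (0.01), Fkbp5 (0.08), Zbtb16 (0.25) and Sgk1 (0.27), which are among the glucocorticoid targets of the list, passed in neither fit. The groups were separate for Zbtb16 and overlapped for the other 3.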

How the data were processed

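The authors deposited 1 intensity per probe set and array, on a linear scale. How it was computed (software, background step, normalization) is not given by the labels. No detection calls were used. Of the 45101 rows, 64 Affymetrix controls were left out. Genes were named from the platform's annotation, using probe sets with 1 symbol, and lists were read at each gene's brightest probe set over all 6 arrays. Values were analysed as log2(intensity + 32), so differences of dim probe sets are understated. The contrast of EBF with control came from limma 3.58.1 (R 4.3.3; lmFit, then eBayes; two-sided), with no term but the group and with Benjamini-Hochberg adjustment over all probe sets at a threshold of 0.05. The fit was also run on simulated arrays with independent noise. These held no deviations shared by replicate number, so they do not test how the fit handles such deviations. The members and lists were chosen with earlier results of these data known.

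Replicate numbers were taken to pair the arrays, since arrays of the same number deviated together from their group means (correlations of 0.318, 0.255 and 0.503 for numbers 1 to 3, all over 0.1, over the 22519 probe sets with a mean at or above the median). This pairing is read from the data and is not stated by the labels. Named genes are all members, genes of the other clock list and of the list around Per1 past the threshold in either fit, and the 4 genes most like and 4 most unlike Arntl over the arrays. Rora, Rorb, Arntl2, Tsc22d3, Fkbp5, Sgk1 and Zbtb16 were named after their values were seen. The same holds for every cell type marker named singly. Alternatives were the replicate block, pseudocounts of 8 and 128, median scaling, quantile normalization, a minimum mean intensity of 200, a trended robust variance, and arrays left out. The number of arrays limits the precision. Figures were drawn with matplotlib 3.10.9 in Python 3.11.15.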

Additional observations from a re-analysis of the deposited data

How the results depend on the processing

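Of 318 recomputed values of clock probe sets, 315 moved by less than 1 SD between replicates and 3 moved further. The sign changed in 33 of the 318, at 11 probe sets whose reported differences were at most 0.13 in size, among them Per1, Cry2 and Nr1d2 1416959_at. The 3 were Arntl 1425099_a_at (0.70), Per3 1441445_at (0.27) and Cry2 (0.27), each without EBF 3 and control 2 together. The count of clock probe sets called higher, 0, became 1 with the replicate block, 1 without EBF 3 and control 2 together, and 0 to 2 without single arrays; the count called lower stayed 0 in all settings. Of other clock genes, 1 was higher with the block, with the higher pseudocount and with the trended robust variance, and 0 to 1 without single arrays; 1 was lower with the block. Over all probe sets, 155 higher and 239 lower calls became 2199 and 1081 with the replicate block and 1386 and 501 without EBF 3 and control 2. The higher calls numbered 103 with the lower pseudocount and 278 with the trended robust variance. Without single arrays, the higher calls ranged from 32 to 3045 and the lower from 43 to 1242, with the largest counts without EBF 3. The causes were not tested. The block changed no call of a clock probe set other than that of Arntl 1425099_a_at. Dim probe sets near the Bacillus controls carry little signal over background.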
